A study of Mus musculus with 2 samples.

Results

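The genes described here are 10 C-type lectin receptors of myeloid cells, Clec4e, Clec4d, Clec4n, Clec4a1, Clec4a2, Clec4a3, Clec12a, Clec10a, Mgl2 and Mrc1. They were taken by symbol from the 31053 genes of the deposited tables, and all 10 symbols had a row. The data were unique molecular identifiers (UMIs, each standing for 1 captured transcript) in single cells. The cells came from ischemic brains of Foxp3Egfp mice, a strain in which Foxp3 carries a green fluorescent reporter, aged 6 to 8 weeks and flushed with PBS. The sort kept CD45+ CD11b+ CD3- F4/80+ cells, and the labels call them macrophages. The 2 libraries, replicate 1 and replicate 2, belong to 1 group, so there was no uninjured or untreated brain to compare with. Every comparison below is between kinds of cell within the same libraries. Whether each replicate is its own animal is not stated in the labels, so the p-values measure only the spread between these libraries, which may be technical.

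C-type lectin receptors recognise sugars, glycolipids and products of dead cells at the surface of phagocytes. Mincle (Clec4e), MCL (Clec4d) and Dectin-2 (Clec4n) are activating receptors that signal through the adaptor FcRγ (Fcer1g), the kinase Syk and Card9. DCIR1 (Clec4a2) and MICL (Clec12a) carry an inhibitory motif that recruits phosphatases, and Clec4a1 and Clec4a3 are further DCIR family members. MGL1 (Clec10a) and MGL2 (Mgl2) bind galactose-type sugars and are used as markers of alternatively activated macrophages and dendritic cells. The mannose receptor CD206 (Mrc1) takes up glycoproteins and is, in the healthy brain, a marker of border-associated macrophages.

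The members fall at 4 places in the mouse genome (GENCODE annotation, GRCm38). Clec4a1 (chr6:122921848-122934619), Clec4a3 (chr6:122952515-122969875), Clec4a2 (chr6:123106428-123143999), Clec4n (chr6:123229843-123247021) and Clec4d (chr6:123262111-123275265) lie on the plus strand of chromosome 6, and Clec4e (chr6:123281789-123289870) lies on the minus strand. These 6 genes stand within 368 kb, in a block of 9 protein-coding lectin genes that also holds Clec4a4, Clec4b1 and Clec4b2. Clec4d and Clec4e end 6523 bases apart, tail to tail. Clec12a (chr6:129342691-129365303) is on the same chromosome outside this block. Mgl2 (chr11:70130329-70137550) and Clec10a (chr11:70156197-70170834) are neighbours 18646 bases apart, and Mrc1 (chr2:14229392-14332057) stands alone. Of the 50-base stretches in the annotated transcripts of Clec10a, 8.49% also occur in Mgl2, so a few UMIs of this pair could have been split by the authors' counting. For Clec4a2, 6.69% of such stretches occur in other genes, mainly Clec4a4 and Clec4b1.

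Promoters of 3 members are shown because the results below turn on them: among the named classes Clec4e was highest in neutrophil-like cells, Clec4d in monocyte-like cells, and Clec12a moved opposite to both within the macrophage-like cells. Each is the 250 bases before the RefSeq transcription start (GRCm38.p6), 5′ to 3′ on the strand of the gene, from chr6:123289872-123290121 (minus), chr6:123261857-123262106 (plus) and chr6:129349994-129350243 (plus). Capitals mark matches to TTNNGCAA (C/EBP), GAGGAA (PU.1) or TGANTCA (AP-1), searched on both strands, so that TTCCTC is a GAGGAA match on the other strand.
Clec4e: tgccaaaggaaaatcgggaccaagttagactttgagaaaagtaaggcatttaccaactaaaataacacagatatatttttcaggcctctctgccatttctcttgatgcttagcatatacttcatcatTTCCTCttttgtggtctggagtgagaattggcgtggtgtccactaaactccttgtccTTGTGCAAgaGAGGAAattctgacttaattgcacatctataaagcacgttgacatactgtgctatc
Clec4d: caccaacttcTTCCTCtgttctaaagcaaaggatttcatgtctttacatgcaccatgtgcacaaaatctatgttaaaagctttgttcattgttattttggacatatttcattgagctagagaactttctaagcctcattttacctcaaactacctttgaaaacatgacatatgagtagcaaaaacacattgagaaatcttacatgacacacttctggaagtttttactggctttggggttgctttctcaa
Clec12a: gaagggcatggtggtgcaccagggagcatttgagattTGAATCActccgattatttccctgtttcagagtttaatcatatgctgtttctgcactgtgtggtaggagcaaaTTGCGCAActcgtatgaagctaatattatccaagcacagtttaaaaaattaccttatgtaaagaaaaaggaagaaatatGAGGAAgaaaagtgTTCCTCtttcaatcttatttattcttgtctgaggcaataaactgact

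Counting the first transcribed base as 0, the Clec4e promoter had a C/EBP match at -66 to -59 with a PU.1 match close after it at -56 to -51 and another at -123 to -118. The Clec12a promoter also had a C/EBP match, at -140 to -133, with an AP-1 match at -213 to -207 and PU.1 matches at -61 to -56 and -47 to -42. Its RefSeq start differs from the gene start of the GENCODE annotation. The Clec4d promoter had a PU.1 match at -240 to -235, and more PU.1 matches lay after its start at 7 to 12 and 39 to 44, outside the bases shown. Over 32851 RefSeq promoter windows of 300 bases, 10.8% held a C/EBP match, 28.3% a PU.1 match and 7.81% an AP-1 match. Such matches are descriptions of the letters and not binding sites.

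After removal of likely doublets, 13624 cells of replicate 1 and 7409 cells of replicate 2 were clustered, with medians of 4975.5 and 5612 UMIs per cell; 25 cell barcodes occurred in both libraries, against 14.9 expected by chance. The members and the other lectins were left out of the genes that formed the clusters. By marker genes, macrophage-like cells made up 32.0% of replicate 1 and 6.98% of replicate 2, and microglia-like cells 42.3% and 67.5%. Most of the sorted cells thus lay in clusters that were not named from the list of monocyte-derived macrophage markers. Monocyte-like, dendritic cell-like, neutrophil-like, cycling-like, T or NK cell-like and mural or fibroblast-like cells made up the other named classes, and 1107 and 150 cells stayed unnamed. The macrophage-like class joined 3 clusters. In replicate 1 cluster 0 (2325 cells; Ms4a7, Apoe, Gpnmb) and cluster 8 (930 cells; Fabp4, Gpnmb, Spp1) held most of it, whereas in replicate 2 cluster 5 (355 of 517 cells; Arg1, Pf4, Hmox1) did. In cluster 5 the lists of monocyte-derived and border-associated macrophage markers each had 1 gene among the leading ones, with 9 of 12 and 4 of 9 markers detected. RNA outside cells was measured in barcodes under 100 UMIs, which held 4.91% and 4.40% of all UMIs. Levels below are CPM, the UMIs of a gene in the summed cells scaled to a common total of UMIs, given for replicate 1 and then replicate 2.

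Clec4e was highest in neutrophil-like and monocyte-like cells. It had 224 and 357 CPM in monocyte-like cells, 41.2 and 60.0 CPM in dendritic cell-like cells, 320 and 762 CPM in neutrophil-like cells, 20.9 and 91.0 CPM in macrophage-like cells, and 5.37 and 1.02 CPM in microglia-like cells. By mean level the order was neutrophil-like, monocyte-like, macrophage-like, dendritic cell-like and then the remaining classes; the neutrophil-like and monocyte-like ranges overlapped, as did those of macrophage-like and dendritic cell-like cells. After thinning every cell to 1000 UMIs, a Clec4e UMI was seen in 23.9% and 27.4% of monocyte-like cells and in 33.3% and 48.7% of neutrophil-like cells. Among mural or fibroblast-like cells, which should lack the gene, it was seen in 0 of 153 and 0 of 94 thinned cells, which allows shares of up to 1.96% and 3.19%; without thinning the shares were 43.5% and 69.3%, 71.1% and 78.4%, and 3.27% and 2.13% in the same order. Median depths were 2622 and 6522 UMIs in monocyte-like, 5520 and 3389 in neutrophil-like, and 7326 and 18188.5 in mural or fibroblast-like cells. The level in microglia-like cells was below that of the free RNA, 40.8 and 83.9 CPM.

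Among the named classes Clec4d was highest in monocyte-like cells, with 339 and 694 CPM. Dendritic cell-like cells had 46.0 and 33.7 CPM, neutrophil-like cells 103 and 240 CPM, macrophage-like cells 158 and 302 CPM, and microglia-like cells 6.88 and 1.53 CPM. The macrophage-like and neutrophil-like ranges overlapped, and the monocyte-like values stood above both. Clec4n was carried by macrophage-like and monocyte-like cells alike. It had 101 and 249 CPM in monocyte-like cells, 97.5 and 138 CPM in dendritic cell-like cells, 41.9 and 117 CPM in neutrophil-like cells, 114 and 289 CPM in macrophage-like cells, and 5.24 and 1.59 CPM in microglia-like cells. In mean level macrophage-like cells came first, but the ranges of these classes other than microglia-like cells overlapped in turn. After thinning, a Clec4n UMI was seen in 9.90% and 16.0% of monocyte-like cells and in 7.74% and 17.0% of macrophage-like cells.

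**Figure D1:**
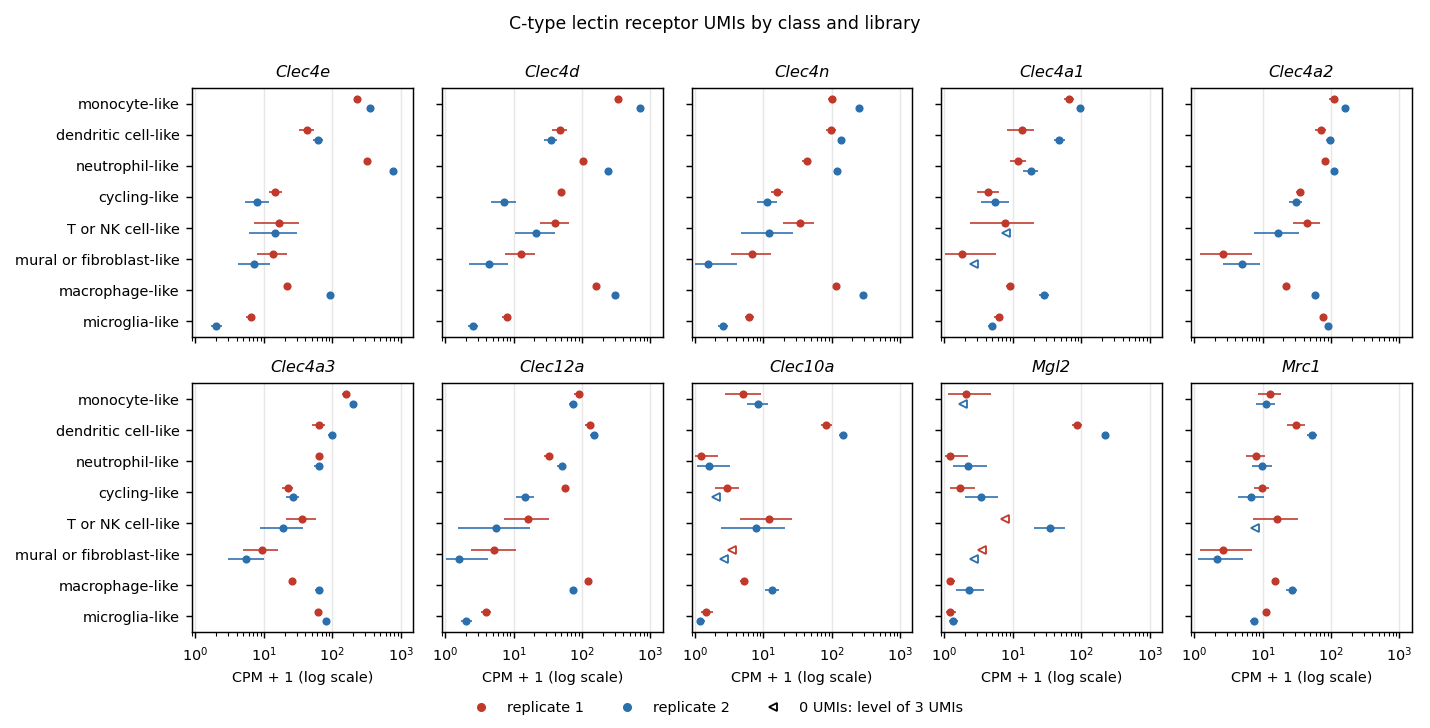
Level of each receptor (CPM + 1, log axis) in the 8 named classes, 1 panel per gene, with replicate 1 in red and replicate 2 in blue; bars are exact 95% Poisson intervals and open triangles mark sums with 0 UMIs at the level that 3 UMIs would give. Clec4e reached 320 and 762 CPM in neutrophil-like cells, Clec4d 339 and 694 CPM in monocyte-like cells, and Mgl2 85.8 and 223 CPM in dendritic cell-like cells, while Clec4a2 and Clec4a3 stayed high in microglia-like cells.

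Among the named classes, monocyte-like cells had the highest mean level of each of the 3 DCIR family members, as they had of Clec4d. Clec4a1 had 65.5 and 94.0 CPM in monocyte-like cells, 12.4 and 46.6 CPM in dendritic cell-like cells, 10.8 and 17.3 CPM in neutrophil-like cells, 7.96 and 27.6 CPM in macrophage-like cells, and 5.20 and 3.97 CPM in microglia-like cells. Clec4a2 had 108 and 159 CPM in monocyte-like cells, 69.3 and 96.2 CPM in dendritic cell-like cells, 80.0 and 109 CPM in neutrophil-like cells, 21.2 and 57.5 CPM in macrophage-like cells, and 74.7 and 88.4 CPM in microglia-like cells. Its ranges in the 4 leading classes overlapped in turn. Clec4a3 had 155 and 202 CPM in monocyte-like cells, 61.8 and 96.2 CPM in dendritic cell-like cells, 63.8 and 61.8 CPM in neutrophil-like cells, 24.5 and 61.9 CPM in macrophage-like cells, and 61.5 and 79.7 CPM in microglia-like cells. In microglia-like cells Clec4a2 and Clec4a3 exceeded the free RNA, which held 49.6 and 68.0 CPM of Clec4a2 and 33.2 and 68.0 CPM of Clec4a3. For the other 8 members the microglia-like level was below that of the free RNA in both libraries.

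Clec12a had 88.3 and 71.6 CPM in monocyte-like cells, 128 and 147 CPM in dendritic cell-like cells, 31.4 and 49.1 CPM in neutrophil-like cells, 120 and 73.9 CPM in macrophage-like cells, and 2.94 and 1.02 CPM in microglia-like cells. It was the only member whose macrophage-like level was lower in replicate 2 than in replicate 1. Among the named classes, Clec10a and Mgl2 were highest in dendritic cell-like cells. Clec10a had 4.13 and 7.45 CPM in monocyte-like cells, 82.4 and 144 CPM in dendritic cell-like cells, 4.21 and 12.4 CPM in macrophage-like cells, and 0.461 and 0.191 CPM in microglia-like cells. Mgl2 had 85.8 and 223 CPM in dendritic cell-like cells, against 0.197 and 1.26 CPM in macrophage-like cells, where both libraries together held 12 UMIs. All 15 Mgl2 UMIs of the T or NK cell-like class of replicate 2 came from 1 cell. Mrc1 was low in every named class: 11.9 and 10.0 CPM in monocyte-like cells, 30.2 and 52.2 CPM in dendritic cell-like cells, 6.94 and 8.96 CPM in neutrophil-like cells, 14.0 and 25.5 CPM in macrophage-like cells, and 10.4 and 6.48 CPM in microglia-like cells. Free RNA held 27.8 and 16.3 CPM of Mrc1, so among the named classes only the dendritic cell-like level exceeded it in both libraries.

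Macrophage-like cells were compared with microglia-like cells, the most numerous class. Of the 10 members 7 were higher and 1 was lower (edgeR's quasi-likelihood test, Benjamini-Hochberg adjusted p under 0.05), while 44.1% of the 11005 tested genes were called, 21.1% higher and 23.0% lower. The median log2 fold change of the members was 3.09, against -0.038 over all genes. Clec4d was higher by 6.16 ± 0.82 (log2 fold change ± SE, adjusted p = 1.72e-05), with 4.89 in replicate 1 and 7.62 in replicate 2. Clec4n was higher by 6.04 ± 0.66 (adjusted p = 2.52e-06) and Clec12a by 6.01 ± 0.52 (adjusted p = 2.78e-07). On a linear scale these 3 differences were 71.6-fold, 65.6-fold and 64.5-fold. Clec10a (4.81 ± 0.51, adjusted p = 2.73e-06), Clec4e (4.19 ± 0.69, adjusted p = 0.000135), Clec4a1 (1.99 ± 0.38, adjusted p = 0.000502) and Mrc1 (1.47 ± 0.32, adjusted p = 0.0016) were higher as well. The microglia-like levels of all 7 lay below those of free RNA, whose part in the folds was not tested. In replicate 1, but not in replicate 2, the macrophage-like levels of Clec4e, Clec4a1 and Mrc1 were below free RNA too. Free RNA of replicate 1 held 40.8, 20.8 and 27.8 CPM of these 3.

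The member that was lower in macrophage-like cells was Clec4a2, by -0.86 ± 0.29 (adjusted p = 0.0242), with -1.38 in replicate 1 and -0.38 in replicate 2. This call was lost with DESeq2 (adjusted p = 0.0944), without the library as a block (adjusted p = 0.105) and under a stricter cell filter (adjusted p = 0.141). Clec4a3 differed by -0.49 ± 0.25 (adjusted p = 0.13) and Mgl2 by 1.40 ± 0.78 (adjusted p = 0.165). Scaling by library size alone moved the median of all genes to -0.38 and the share of called genes that were higher to 24.0%, against 47.9% with TMM scaling; there Clec4a3 was also called lower, by -0.80. Without cluster 5 the differences of Clec4d, Clec4n and Clec4e were 4.72, 3.52 and 2.23, still called.

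**Figure D2:**
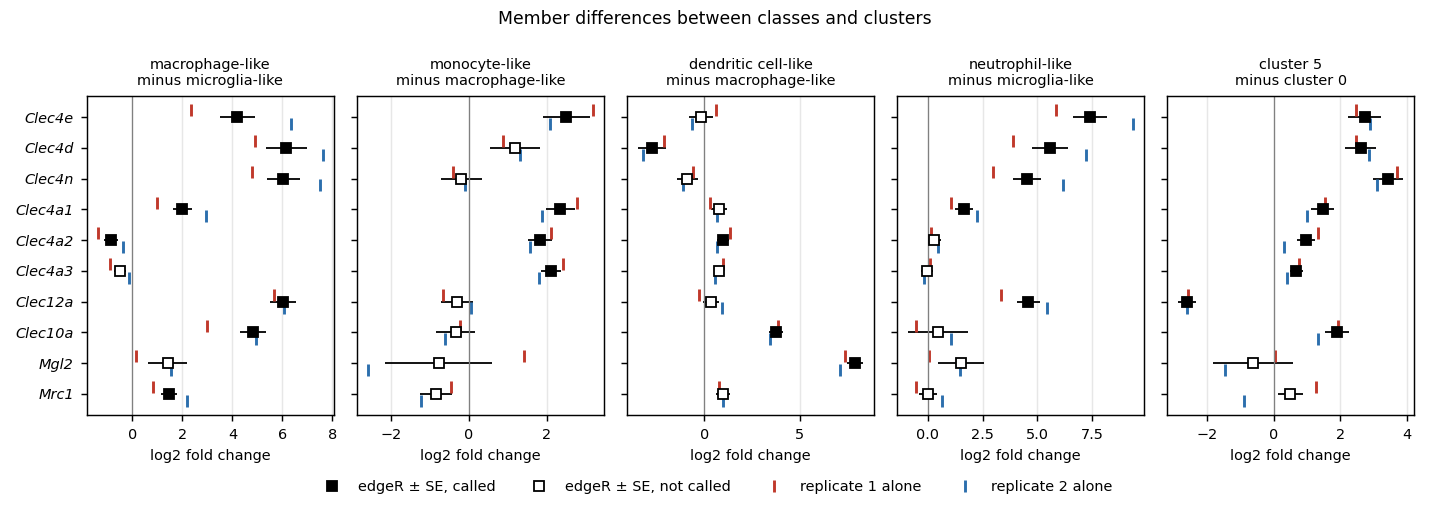
Log2 fold change of each receptor in the 5 comparisons, named above each panel; squares with bars are edgeR estimates ± SE, filled where the adjusted p was under 0.05, and ticks give each library alone. Macrophage-like cells exceeded microglia-like cells by 6.16 for Clec4d and 6.04 for Clec4n, and in cluster 5 against cluster 0 Clec4n was higher by 3.43 while Clec12a was lower, at -2.60.

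Monocyte-like cells, the class with Ly6c2, Plac8 and Chil3, were set against macrophage-like cells. Here 4 of the 10 members were higher and 0 were lower, while 15.5% of all tested genes were called, 8.84% higher and 6.68% lower; the median of the members was 0.49, against -0.047 over all genes. At an unadjusted p under 0.05 (edgeR) and with DESeq2, 0 members were lower too. The 4 were Clec4e (2.5 ± 0.61, edgeR adjusted p = 0.0115), Clec4a1 (2.34 ± 0.37, adjusted p = 0.000699), Clec4a3 (2.10 ± 0.27, adjusted p = 0.000108) and Clec4a2 (1.83 ± 0.30, adjusted p = 0.00105). Each was higher in both libraries, Clec4e by 3.18 in replicate 1 and 2.07 in replicate 2. Clec4d differed by 1.18 ± 0.65 (adjusted p = 0.243), Clec4n by -0.19 ± 0.52, Clec12a by -0.31 and Mrc1 by -0.84, none of them called. The Clec4n value depended on cluster 5: without that cluster it was 2.38 and called (adjusted p = 0.00596), and Clec4d was then called too, at 2.74. At a coarser clustering, which made the monocyte-like class 1726 cells in replicate 1 against 515 here, Clec4a1 was at -0.022 and no longer called.

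Dendritic cell-like cells were set against macrophage-like cells, and the pair of galactose-type lectins set them apart. Mgl2 was higher by 7.90 ± 0.43 (edgeR adjusted p = 2.85e-08), with 7.37 in replicate 1 and 7.15 in replicate 2. Clec10a was higher by 3.76 ± 0.36 (adjusted p = 1.11e-05), a 13.6-fold difference. Clec4a2 was higher by 1.0 ± 0.31 (adjusted p = 0.0346), and Clec4d was lower, at -2.74 ± 0.73 (adjusted p = 0.0164). In all 3 members were higher and 1 was lower, while 17.4% of all tested genes were called, 9.10% higher and 8.35% lower, with medians of 0.77 for the members and -0.038 for all genes. The Clec4a2 call was lost under 5 alternatives: DESeq2 (adjusted p = 0.0749), no library block (0.118), a finer clustering (0.0678), doublets kept (0.0622) and the stricter cell filter (0.0883). The Clec4d call was lost without cluster 5 (-1.24, adjusted p = 0.249) and under the stricter filter. Without cluster 5, Clec4n stood at 1.67 and Clec4e at 1.90, both called higher, and 7 members were higher in all. Under library-size scaling the median of all genes was 0.16, 75.0% of called genes were higher against 52.1% with TMM, and Clec4a3 and Mrc1 were also called.

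Within the dendritic cell-like class the pair was concentrated in cells with a UMI of Cd209a, which encodes a DC-SIGN homologue of monocyte-derived and conventional type 2 dendritic cells. In those 80 and 79 cells Mgl2 stood at 176 and 426 CPM, against 40.3 and 99.8 CPM in the 196 and 150 cells without a Cd209a UMI. Clec10a stood at 110 and 280 CPM, against 68.3 and 61.0 CPM. Cells with a UMI of Xcr1, a marker of conventional type 1 dendritic cells, numbered 4 and 8. They held 0 UMIs of Clec10a, Mgl2, Clec4e, Clec4d, Clec4n, Clec4a1 and Mrc1, but 2 and 30 UMIs of Clec12a. Of the cells with a Clec10a UMI, 21.5% and 39.7% also held one of Mgl2, against 13.7% and 17.9% of the cells without Clec10a. These shares were not depth-matched. After thinning to 1000 UMIs in replicate 2, 0 of 21 cells with a Clec10a UMI held one of Mgl2. Of the 208 cells without Clec10a, 29 did (13.9%). With so few cells and a single random thinning, this cannot decide whether the higher share among cells with Clec10a holds at equal depth. In replicate 1 too few thinned cells held a Clec10a UMI to take a share.

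Neutrophil-like cells were also set against microglia-like cells. Clec4e was higher by 7.39 ± 0.77 (edgeR adjusted p = 3.44e-05), or 168-fold, with 5.85 in replicate 1 and 9.37 in replicate 2. Clec4d was higher by 5.58 ± 0.81 (adjusted p = 0.00046), Clec12a by 4.59 ± 0.52 (adjusted p = 6.11e-05), Clec4n by 4.51 ± 0.64 (adjusted p = 0.000394) and Clec4a1 by 1.65 ± 0.43 (adjusted p = 0.0323). Thus 5 members were higher and 0 lower, while 5.43% of all tested genes were called, 5.19% higher and 0.245% lower; the medians were 1.58 for the members and -0.056 for all genes. The count of lower members was also 0 at an unadjusted p under 0.05 and with DESeq2. The Clec4a1 call was lost under 6 alternatives, among them the fit without the library block (1.70, adjusted p = 0.136) and library-size scaling (1.54, adjusted p = 0.0637). Clec4a2 (0.30) and Clec4a3 (-0.04) were not called.

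The neutrophil-like sums contained microglia transcripts. The microglia markers summed to 10762 and 9064 CPM in neutrophil-like cells, against 14143 and 19510 CPM in microglia-like cells, and the neutrophil markers to 34811 and 86603 CPM in neutrophil-like cells. The neutrophil-like cells of each library were therefore split into 3 bins by their microglia marker share. In replicate 2 the summed microglia markers of the bins were 238, 3904 and 14211 CPM, and Clec4e was 1186, 1012 and 514 CPM in the same order. In replicate 1 the bins held 4517, 10209 and 14991 CPM of microglia markers and 440, 302 and 268 CPM of Clec4e. Clec4d was 85.3 and 161 CPM in the bins with the most microglia transcripts and 174 and 412 CPM in those with the fewest. Clec12a was 12.3 and 15.7 CPM in the bins with the most and 82.2 and 139 CPM in those with the fewest. Clec4a2 changed less in replicate 1, with 94.5, 65.9 and 85.3 CPM, but fell from bin to bin in replicate 2, with 181, 113 and 83.0 CPM. The part of these transcripts in the test above was not tested.

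**Figure D3:**
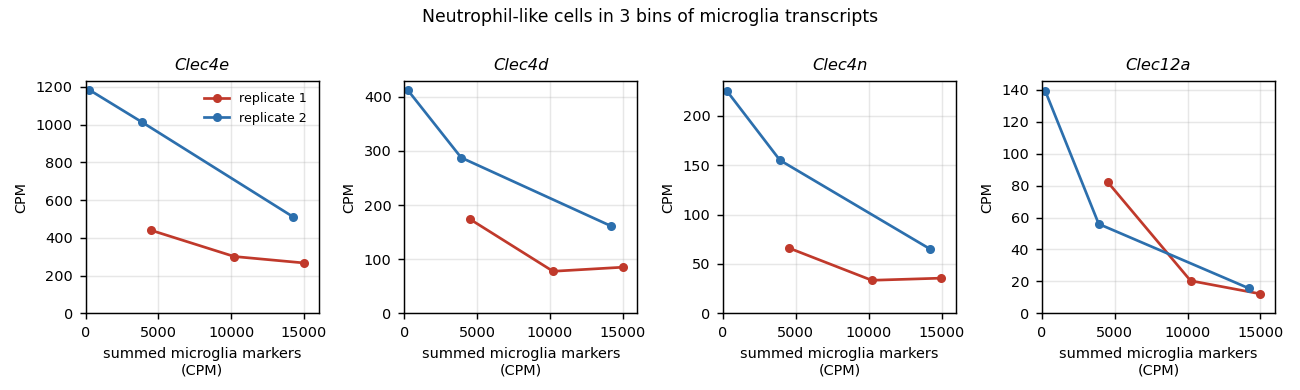
Level of 4 receptors (CPM) in neutrophil-like cells against the summed microglia markers of the same cells (CPM), in 3 bins per library; each point is the sum over a bin of 239 cells (replicate 1, red) or 196 to 197 cells (replicate 2, blue). Clec4e was 1186, 1012 and 514 CPM in replicate 2 and 440, 302 and 268 CPM in replicate 1 from the fewest to the most microglia transcripts.

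Cluster 5 and cluster 0 were compared because they are the 2 macrophage-like clusters with enough cells in both libraries. Clec4n was 489 and 425 CPM in cluster 5, against 31.6 and 45.0 CPM in cluster 0. Clec4d was 433 and 432 CPM in cluster 5, against 65.0 and 53.7 CPM in cluster 0, and Clec4e was 69.8 and 132 CPM against 10.3 and 15.8 CPM. Clec12a ran the other way, with 29.9 and 27.9 CPM in cluster 5, against 152 and 154 CPM in cluster 0. In none of these 4 did the libraries of the clusters overlap. The cluster 0 levels of Clec4n, Clec4d and Clec4e lay below those of free RNA in both libraries. Free RNA held 56.7 and 57.5 CPM of Clec4n, 119 and 95.4 CPM of Clec4d, and 40.8 and 83.9 CPM of Clec4e. For Clec12a it held 46.4 and 20.6 CPM, so the cluster 5 level lay below it in replicate 1 only. The part of free RNA in these differences was not tested.

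In the fit over clusters, Clec4n was higher in cluster 5 by 3.43 ± 0.45 (edgeR adjusted p = 2.21e-05), or 10.8-fold, Clec4e by 2.73 ± 0.49 (adjusted p = 0.00054) and Clec4d by 2.61 ± 0.46 (adjusted p = 0.000466). Clec10a (1.90 ± 0.36, adjusted p = 0.00106), Clec4a1 (1.46 ± 0.34, adjusted p = 0.00406), Clec4a2 (0.97 ± 0.28, adjusted p = 0.0203) and Clec4a3 (0.68 ± 0.20, adjusted p = 0.0208) were also higher. Clec12a was lower, at -2.60 ± 0.27 (adjusted p = 2.1e-06), a 6.07-fold difference with -2.58 in replicate 1 and -2.59 in replicate 2. That made 7 members higher and 1 lower, while 15.7% of the 10133 tested genes were called, 7.23% higher and 8.45% lower, with medians of 1.22 for the members and -0.018 for all genes. Mrc1 differed by 0.50, with 1.26 in replicate 1 and -0.90 in replicate 2, and was not called. Without the library block the calls of Clec4a2 (0.90, adjusted p = 0.0817) and Clec4a3 (0.68, adjusted p = 0.16) were lost, and with DESeq2 those of Clec4a2 and Clec4e (2.75, adjusted p = 0.0552). Under library-size scaling 80.6% of called genes were higher, against 46.1% with TMM, and the median of all genes was 0.23. The members were not among the genes that formed the clusters, but both clusters were drawn from the cells in which they were then compared.

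Other clusters filled in the range. Cluster 8 was near cluster 0 in Clec12a, at 123 and 176 CPM, with 143 and 88.1 CPM of Clec4d. Its Clec4n was lower, at 15.8 and 7.55 CPM, and also below the level of free RNA. Its 27 cells in replicate 2 kept it out of the fit. The unnamed cluster 19 (151 and 14 cells; Hmox1, Gclm, Srxn1) had 292 and 141 CPM of Clec4d and 323 and 171 CPM of Clec4n, between clusters 0 and 5, and it held 2 and 0 UMIs of Clec12a. Its Clec4e, 14.8 and 20.1 CPM, was near that of cluster 0. Among monocyte-like clusters, cluster 9 (Plac8, Chil3, Ly6c2) carried 382 and 754 CPM of Clec4d and 242 and 377 CPM of Clec4e. Cluster 20 (Ear2, Ace, Treml4, genes of patrolling monocytes) carried 33.3 and 56.6 CPM of Clec4d but 387.5 and 559 CPM of Clec4a3, against 122 and 168 CPM in cluster 9. Its Clec4a1 was 167 and 243 CPM, against 51.2 and 80.0 CPM in cluster 9.

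**Figure D4:**
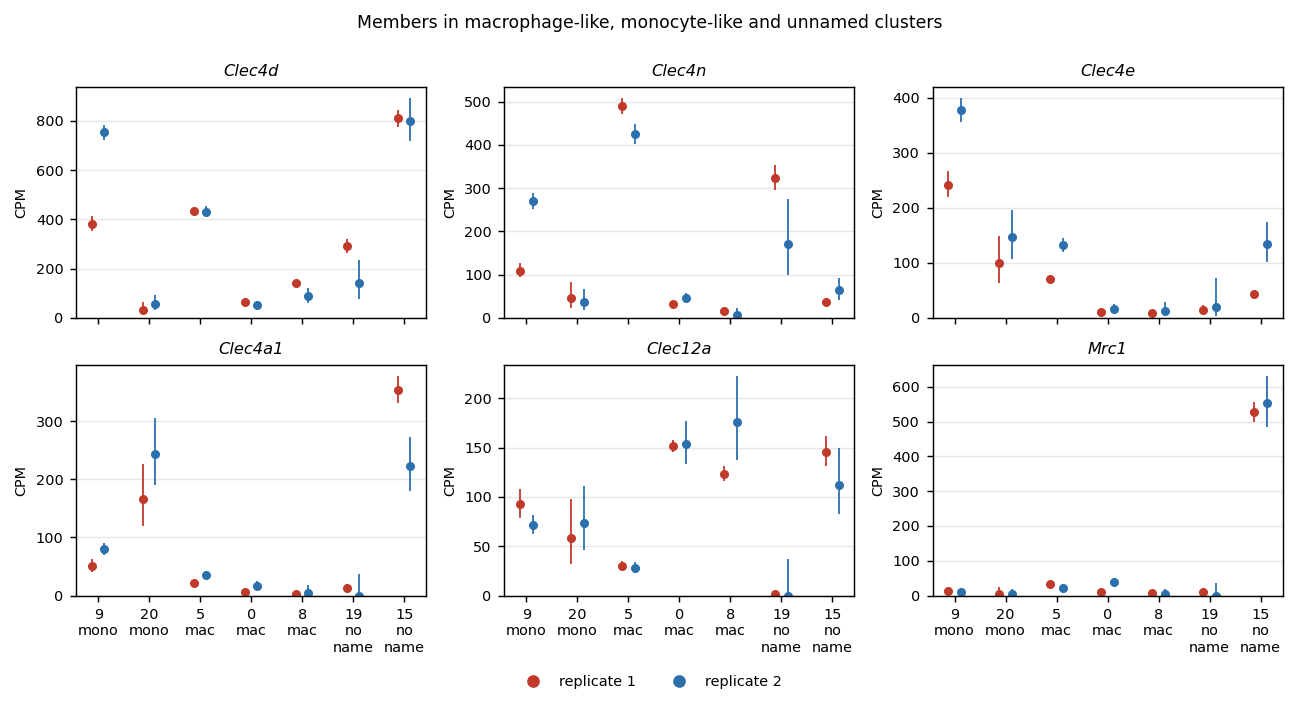
Level of 6 receptors (CPM) in the monocyte-like clusters 9 and 20, the macrophage-like clusters 5, 0 and 8 and the unnamed clusters 19 and 15, with replicate 1 in red and replicate 2 in blue and exact 95% Poisson intervals as bars. Clec4n was 489 and 425 CPM in cluster 5 and 31.6 and 45.0 CPM in cluster 0, Clec12a showed the opposite order, and Mrc1 reached 528 and 555 CPM in cluster 15.

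In some clusters, an activating receptor was seen more often in cells that also held another of the group. After thinning, a Clec4n UMI was seen in 29.2% and 29.9% of cluster 5 cells with a Clec4d UMI, against 19.97% and 20.6% of those without. In cluster 9 the shares were 20.1% and 24.2% of cells with Clec4d, against 6.04% and 12.6% of cells without. In the neutrophil-like cluster 6, Clec4e was seen in 47.6% and 61.6% of cells with Clec4d, against 30.9% and 44.0% of cells without. This did not hold for every pair and cluster. In cluster 0 of replicate 1, Clec4n was seen in 2.76% of cells with Clec4d, against 2.89% of cells without, and in cluster 15 of replicate 1 in 0.99% of cells with Clec4d, against 4.32% of cells without. Clec4e went the other way in both, with 5 cells holding both genes in each. It was seen in 3.45% of cluster 0 cells with Clec4d, against 1.33% of those without. In cluster 15 these shares were 4.95% and 0%. Clec4n was seen in 11.8% of cluster 0 cells with Clec4e, against 2.75% of those without. In cluster 9 of replicate 2, Clec4n was seen in 16.0% of cells with Clec4e, against 18.6% of cells without. None of these shares was tested.

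Cluster 15 (240 and 19 cells; Xist, Marco) held the highest Mrc1 of any cluster, and many of its cells held Xist. Mrc1 was 528 and 555 CPM there, and this small cluster of 1.76% and 0.256% of the cells held 60.5% and 29.9% of all Mrc1 UMIs. Clec4d was 811 and 801 CPM, Clec4a1 354 and 222 CPM, and Clec4n 36.5 and 63.5 CPM. Xist, the RNA of the inactive X chromosome in females, was 331 and 252 CPM in the cluster, against 0.393 and 0.289 CPM in all other cells, and 4 genes of the Y chromosome (Ddx3y, Eif2s3y, Kdm5d, Uty) summed to 32.9 and 34.2 CPM, against 120 and 152 CPM. A Xist UMI was seen in 146 of 240 and 8 of 19 cells. These cells held 9.52 and 3.62 CPM of the 4 Y chromosome genes, against 87.5 and 97.7 CPM in the 94 and 11 cells of the cluster without a Xist UMI, whose level was near the 90.4 and 103 CPM of macrophage-like cells. Whether the cells with Xist came from another animal or sample was not tested. Cells with a Xist UMI held 491 and 644 CPM of Mrc1, against 615 and 368 CPM in the cells of the cluster without one. The labels used here do not give the sex of the mice, and the part of this in the receptor levels was not tested. The cluster entered none of the comparisons at the main clustering. At the coarser clustering a cluster of 238 and 18 cells led by Xist and Marco was named macrophage-like and entered the comparisons of that setting.

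In cluster 15, 6 of the 9 border-associated macrophage markers were detected, with 0 among its leading genes. The monocyte-derived macrophage list had 6 of 12 markers detected and 1 leading gene, and the cluster stayed unnamed. Of the cycling markers 7 of 8 were detected there, and of the monocyte markers 3 of 10, each list with 0 leading genes. UMIs of the border-associated markers Cd163 and Lyve1 were few there, at 8 and 2 UMIs of Cd163 and 1 and 0 UMIs of Lyve1. Across all clusters, 47 and 30 cells held a UMI of Cd163 or Lyve1, and their Mrc1 was 274 and 390 CPM. Leaving out cluster 15, 38 and 28 such cells remained, with 158 and 349 CPM of Mrc1 and 15.4 and 50.4 CPM of Clec10a. Mgl2 stood at 0 and 523 CPM in these cells, with 114 UMIs in 42.9% of the 28 cells of replicate 2 and none in the 38 of replicate 1. Mrc1 was high in the few cells with these markers in both libraries, and Mgl2 in those of replicate 2. Of the 559 Mgl2 UMIs of replicate 2, 373 and 144 lay in dendritic cell-like cells with and without a Cd209a UMI. Most of the 114 Mgl2 UMIs thus lay in the dendritic cell-like class, whose levels include cells with these markers.

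In microglia-like cells Clec4a2 and Clec4a3 ran with P2ry12, a marker of homeostatic microglia, from cluster to cluster. Clec4a2 was 122 and 127 CPM in cluster 2, led by P2ry12, 112 and 125 CPM in cluster 3 (Egr1, Klf2) and 150 and 147 CPM in cluster 7 (Hspa1b). It was 43.1 and 42.6 CPM in cluster 1 (Tnf, Cd83, Ccl3), 44.7 and 31.2 CPM in cluster 10 and 40.9 and 46.0 CPM in cluster 14, both led by Cst7. Clec4a3 was 94.3 and 104 CPM in cluster 2, and 34.0 and 37.2 CPM in cluster 10. Clec4a1 did not share this order, with 1.08 and 2.86 CPM in cluster 3 and 4.97 and 5.91 CPM in cluster 1. Over the 7 microglia-like clusters, Pearson's r of log2(CPM + 10) with P2ry12 was 0.965 and 0.932 for Clec4a2 and 0.936 and 0.883 for Clec4a3. For Mrc1 it was 0.532 and 0.112. These are descriptions over clusters of the same libraries, which share their depth and their clustering genes.

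**Figure D5:**
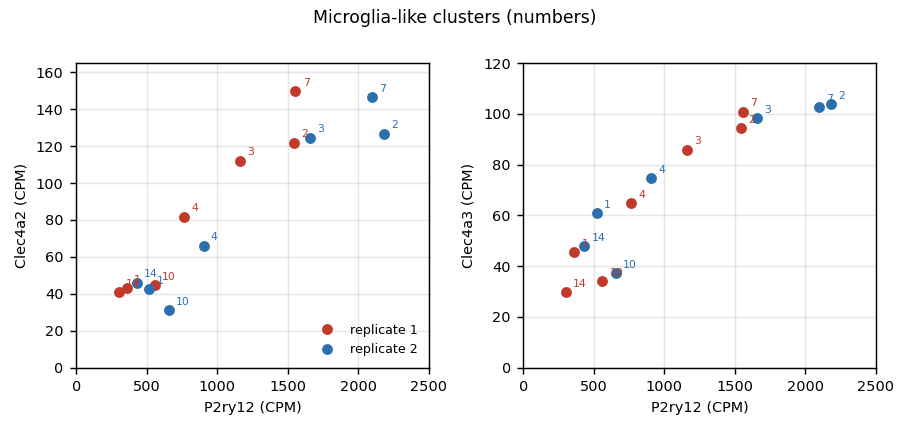
Level of Clec4a2 (left) and Clec4a3 (right) against P2ry12 (all CPM) in the 7 microglia-like clusters, numbered beside the points, with replicate 1 in red and replicate 2 in blue. Clusters 2, 3 and 7 held 112 to 150 CPM of Clec4a2 and clusters 1, 10 and 14 held 31.2 to 46.0 CPM.

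The genes whose log levels ran most like each receptor over the 26 sums of 13 clusters in 2 libraries were found among 4103 genes, as Pearson's r. Only clusters with at least 100 cells in each library entered. That left out cluster 15, which held the highest Mrc1 and Clec4d of any cluster, and cluster 20, which held the highest Clec4a3. For Clec4e they were Slfn1 (0.973), Glipr2 (0.972) and Itgal (0.969), and for Clec4d Emilin2 (0.985), Chil3 (0.984) and Card19 (0.973). For Clec4n they were Emb (0.967), Tgfbi (0.964) and Prdx6 (0.953), and for Clec12a Itga4 (0.964), Cybb (0.963) and Iqgap2 (0.943). Chil3 is a gene of inflammatory monocytes and Itgal encodes an integrin chain of leukocytes. Clec4a1 ran with Pfkp (0.948) and Ly6c2 (0.944), Clec4a2 with Fes (0.873), and Clec4a3 with Pxk (0.864) and Gsdmd (0.847). Clec10a ran with Tnip3 (0.977) and the MHC class II genes H2-Ab1 (0.966) and H2-Eb1 (0.961), Mgl2 with Ccr7 (0.996), Epcam (0.993) and Cd209a (0.989), and Mrc1 with Slamf7 (0.841). Of the clusters used, Mgl2 was high only in the dendritic cell-like cluster 13, so its r rests mostly on that cluster. Within it, Mgl2 was 23.6 and 187 CPM in the 19 and 21 cells with a Ccr7 UMI. The 257 and 208 cells without one held 89.6 and 227 CPM. Among the members, Clec4d and Clec4n reached 0.94, Clec10a and Mgl2 0.93, Clec4a2 and Clec4a3 0.92, and Clec4d and Clec4e 0.90. The sums share libraries, depth and free RNA.

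Of 35 other C-type lectin genes with a row in the tables, 20 were abundant enough to test between classes. In macrophage-like against microglia-like cells 6 were higher and 6 lower (median 0.17), while 21.1% of all tested genes were higher and 23.0% lower. The endothelial and monocyte lectin Cd93 was higher by 6.38 ± 0.58 (edgeR adjusted p = 4.02e-07), at 125 and 113 CPM in macrophage-like cells, against 3.19 and 0.826 CPM in microglia-like cells. Thbd, thrombomodulin, was higher by 4.69 ± 0.64 (adjusted p = 2.43e-05) and Clec2i by 3.63 ± 0.31 (adjusted p = 3.7e-07). Mrc2, the mannose receptor family member Endo180, was lower by -5.06 ± 0.37 (adjusted p = 9.02e-08), with 0.296 and 0.211 CPM in macrophage-like cells, against 12.2 and 14.0 CPM in microglia-like cells. Cd72 was lower as well, by -1.83 ± 0.26 (adjusted p = 4.05e-05). In monocyte-like against macrophage-like cells 6 were higher and 1 lower (median 0.69), against 8.84% and 6.68% of all genes. Cd69 was higher by 3.01 ± 0.37 (adjusted p = 9e-05) and Clec4b1, of the chromosome 6 block, by 2.40 ± 0.53 (adjusted p = 0.00762).

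In dendritic cell-like against macrophage-like cells 9 of these lectins were higher and 1 was lower (median 1.78), against 9.10% and 8.35% of all genes. Clec4b1 was higher by 5.12 ± 0.43 (edgeR adjusted p = 3.21e-06), with 31.6 and 70.7 CPM in dendritic cell-like cells, against 1.12 and 1.05 CPM in macrophage-like cells. Cd209a had 920 UMIs in dendritic cell-like cells, against 1 UMI in macrophage-like cells, and Clec9a, a receptor of conventional type 1 dendritic cells, had 27 UMIs against 2. Cd93 was lower, at -2.28 ± 0.52 (adjusted p = 0.00644). In neutrophil-like against microglia-like cells 6 were higher and 0 lower, also 0 lower at an unadjusted p under 0.05 and with DESeq2 (median 0.35), against 5.19% and 0.245% of all genes. Among them was Olr1, the oxidised LDL receptor LOX-1 (3.23 ± 0.34, adjusted p = 3.44e-05). In cluster 5 against cluster 0, with 19 tested, 2 were higher and 3 lower (median -0.25), against 7.23% and 8.45% of all genes, with Thbd at 2.04 ± 0.50 (adjusted p = 0.00868) and Olr1 at 1.36 ± 0.39 (adjusted p = 0.0195).

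The signalling partners of these receptors were a list of 19 genes, and all 19 were tested. Fcer1g was abundant throughout, with 4886 and 4951 CPM in monocyte-like cells, 4651 and 3914 CPM in macrophage-like cells, and 4063 and 3730 CPM in microglia-like cells. In macrophage-like against microglia-like cells 0 partners were higher and 8 lower (median -0.14), against 21.1% and 23.0% of all genes; 1 was higher at an unadjusted p under 0.05 in edgeR and 0 with DESeq2. The kinases Src (-3.06 ± 0.49, edgeR adjusted p = 0.000103) and Lyn (-0.90 ± 0.22, adjusted p = 0.00367) and the phosphatase Inpp5d (-0.93 ± 0.22, adjusted p = 0.00239) were among those lower. In monocyte-like against macrophage-like cells 8 were higher and 0 lower (median 0.58), against 8.84% and 6.68% of all genes, with 0 lower at an unadjusted p under 0.05 and with DESeq2. Among the 8 were Cebpb (1.28 ± 0.33, adjusted p = 0.0152), Lyn (1.17 ± 0.23, adjusted p = 0.00296) and Nfkb1 (1.15 ± 0.18, adjusted p = 0.000571). In dendritic cell-like against macrophage-like cells Malt1, which acts with Card9 and Bcl10, was higher by 1.90 ± 0.20 (adjusted p = 1.61e-05) and Nfkb1 by 1.51 ± 0.18 (adjusted p = 4.25e-05). There 2 partners were higher and 0 lower by the adjusted p, against 9.10% and 8.35% of all genes; 2 were lower at an unadjusted p under 0.05 and 0 with DESeq2. In neutrophil-like against microglia-like cells Cebpb (1.44 ± 0.33, adjusted p = 0.0155) and Syk (1.10 ± 0.25, adjusted p = 0.0165) were among the 3 higher, with 0 lower also at an unadjusted p under 0.05 and with DESeq2, against 5.19% and 0.245% of all genes. In cluster 5 against cluster 0 Cebpb was higher by 1.61 ± 0.21 (adjusted p = 2.72e-05), while the adaptors Tyrobp (-0.72 ± 0.13, adjusted p = 0.000718) and Fcer1g (-0.46 ± 0.12, adjusted p = 0.0108) were lower, which made 1 higher and 2 lower, against 7.23% and 8.45% of all genes. Cebpb encodes a C/EBP factor, and of the promoters shown those of Clec4e and Clec12a hold a C/EBP match. These 2 genes moved in opposite directions between the clusters, and whether Cebpb acts on either was not tested.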

How the data were processed

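The deposited tables of both libraries, made with 10x Genomics 3' v3 chemistry per the labels' protocols, give unnormalized UMI counts. Per the submitters' processing notes the tools were Cell Ranger 4.0.0, STAR 2.5.1b and Seurat 4, with GRCm38, mm10 and GRCh38 named as builds. Of the 31053 gene IDs, 99.6% were in the mouse annotation used. The libraries held 101893367 and 62850768 UMIs. The members and gene lists were chosen with earlier results of these data known.

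A barcode was kept as a cell from 1000 UMIs and 500 detected genes upwards if no more than 10% of its UMIs were mitochondrial, which left 15050 and 7910. Scrublet marked 1426 doublets (9.48%) in replicate 1; it marked 0 in replicate 2, where the 501 highest-scoring cells (6.33%) were removed instead. Cells were clustered with scanpy 1.11.5 (2000 variable genes, 30 components, Leiden resolution 0.8), without the members, other lectins and signalling partners. Clusters were named from marker lists, with at least 3 leading or detected markers. The text names all members and at most 4 called genes per list, comparison and direction, by size of change. A few genes that this rule would name are not reported here.

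UMIs were summed per library and class (16 sums with at least 50 cells each) or cluster (26 sums with at least 100 cells each) and tested with edgeR 4.0.16 (TMM, filterByExpr, quasi-likelihood, library as a block), with p-values adjusted over genes not used for clustering. All 10 members passed the low-count filter. The block was used because both classes come from the same library; deviations of the paired sums correlated at r = 0.108 to 0.255. The test was checked on simulated counts. Intervals are exact, at 95%, and cover counting error only. Alternatives included DESeq2 1.42.0 and leaving out cluster 5 or 20, which was chosen after seeing the data. R 4.3.3 and Python 3.11.15 were used.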

Additional observations from a re-analysis of the deposited data

Results flagged for a closer look

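Signals of the members appeared in barcodes and clusters that the main comparisons did not use. In barcodes of replicate 1 with at least 500 but under 1000 UMIs, below the cell filter, Clec4e stood at 548 CPM (exact 95% Poisson interval 504 to 595; 560 UMIs in 1396 barcodes), against 38.0 CPM in the clustered cells and 40.8 CPM in free RNA. The neutrophil gene S100a8 stood at 13483 CPM in the same barcodes. In replicate 2 the corresponding barcodes held 87.1 CPM of Clec4e and 1219 CPM of S100a8. The part of such barcodes in the Clec4e levels was not tested.

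Mrc1 in the unnamed cluster 15 stood at 528 CPM in replicate 1 (interval 500 to 557) and at 555 CPM in replicate 2 (485 to 632), against 28.3 and 14.5 CPM over all clustered cells and 27.8 and 16.3 CPM in free RNA. This is the cluster with Xist described above, in which 6 of 9 border-associated macrophage markers were detected but UMIs of Cd163 and Lyve1 were few. Marco stood at 601 and 161 CPM there.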

How the results depend on the processing

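Of 620 recalculations of single members, 574 kept the direction and the side of the threshold, 20 lost a call, 19 gained one and 7 changed sign. The sign changes were all in comparisons with macrophage-like cells, on leaving out cluster 5 or at the coarser clustering (Leiden resolution 0.4). The coarser clustering changed which cells the classes held. A cluster of 1658 and 806 cells led by Arg1, Hmox1, Cxcl3 and Chil3 was named monocyte-like there. A cluster of 238 and 18 cells led by Xist and Marco was named macrophage-like. The part of these changes in the signs was not tested. Monocyte-like minus macrophage-like, Clec4n was 3.38 at Leiden resolution 0.4 and 2.38 without cluster 5, and Clec4a1 -0.022 at resolution 0.4. Dendritic cell-like minus macrophage-like, Clec4e was 1.90 and Clec4n 1.67 without cluster 5, and at resolution 0.4 Clec4n was 1.65 and Mrc1 -1.16. Members lower in macrophage-like than microglia-like cells numbered 1; this was 0 with DESeq2, without the replicate block or under the stricter filter (at least 2000 UMIs and 1000 genes, at most 5% mitochondrial), and 2 with library-size scaling, at resolution 0.4 or without cluster 5. Members lower in monocyte-like than macrophage-like cells numbered 0, but 1 without the low-count filter and 2 at resolution 0.4. For dendritic cell-like minus macrophage-like cells, the 3 higher members became 5 with library-size scaling or at resolution 0.4, 6 without the low-count filter and 7 without cluster 5; the 1 lower became 2 without the low-count filter or at resolution 0.4 and 0 under the stricter filter or without cluster 5. Counts of all genes called moved as follows. Monocyte-like minus macrophage-like gave 1708, but 1013 without the replicate block, 793 at resolution 0.4 and 691 under the stricter filter. Dendritic cell-like minus macrophage-like gave 1920, but 1206 under the stricter filter. Neutrophil-like minus microglia-like gave 598, but 905 without the low-count filter, 366 without the block, 1206 with p adjusted over all genes and 270 under the stricter filter. Cluster 5 minus cluster 0 gave 1589, but 836 without the block. With each library alone there is no test; the signs of called members held in both, at 7 and 1, 4 and 0, 3 and 1, 5 and 0, and 7 and 1 higher and lower. The class with the highest level was the same for 10 of 10 members in each library and for 9 with doublets kept, where Clec4n led in monocyte-like cells. Depth limits Mgl2 and Clec10a outside dendritic cell-like cells, Mrc1 in most classes, and any level at or below that of free RNA.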
